A study of Mus musculus with 4 samples.

Results

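The genes described here are 33 B lymphocyte and plasma cell genes of mouse lung, among 17780 genes in the expression table. They were chosen by what the genes are known for, but with earlier results of these data already known. Of them, 30 are genes of mature B cells and 3 (Jchain, Mzb1 and Tnfrsf17) are genes of plasma cells. All 33 had a row in the table, and all 30 mature B cell genes reached 1 FPKM in at least 1 library of every comparison. FPKM counts sequenced fragments relative to the length of the transcript and to the depth of the library.

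RNA-Seq was performed on lung from C57BL/6 mice (C57BL/6J in the study's methods) in 4 groups, with 1 library per group: vehicle, amiodarone, dabigatran, and amiodarone + dabigatran. Amiodarone is an anti-arrhythmic drug whose long-term use can injure the lung, and dabigatran is an oral inhibitor of thrombin. Per the study's methods the mice were young males without a genetic change, all groups were dosed by mouth on weekdays, the controls received the carboxymethylcellulose suspension that carried the drugs, and dabigatran was given as its prodrug, dabigatran etexilate. The labels give 28 days of treatment, whereas the methods date the collection of lung tissue slightly earlier. Whether a library came from a single animal or from a pool is not given in the sources used here. With 1 library per group there is no test across animals, and no p-value is given. The intervals printed with ratios are exact 95% intervals from the reads of the 2 libraries. They cover counting error only and compare those libraries, not the treatments.

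Mature B cells recognise antigen through a membrane immunoglobulin that signals through the Cd79a and Cd79b chains. Pax5 and Ebf1 hold the B cell programme in place, while coreceptors such as Cd22 tune the signal and Cxcr5 guides the cells to follicles. A B cell that becomes a plasma cell shuts down much of this programme and makes secreted antibody instead, with Mzb1 helping in its assembly and Jchain linking IgA and IgM into polymers. In the lung, B cells circulate through the vessels, sit in the tissue and can gather beside airways in lymphoid aggregates.

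The total of estimated reads per library lay between 17498486 and 18903401, so that depth was much alike in the 4 libraries. A gene with 0 reads could still have had up to 3 reads at this depth. All 6 markers of lung tissue were detected in every comparison, and 1 of them was called lower with amiodarone than with vehicle.

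RefSeq promoter windows of GRCm38.p6 were found for 26 of the 33 genes. Cd79b, Ms4a1, Stap1, Cxcr5, Ly6d, Mzb1 and Blk were not matched. The 250 bases before the start are shown, 5′ to 3′ on the strand of the gene, for the signalling chain with the highest level (Cd79a), for the coactivator of octamer-binding factors (Pou2af1), for an adaptor whose window holds an octamer (Blnk) and for the plasma cell gene with most reads (Jchain). Capitals mark the octamer, which is on the opposite strand of Blnk, 130 to 123 bases before the start. The windows are chr7:24897247-24897496 on the plus strand for Cd79a, chr9:51213440-51213689 on the plus strand for Pou2af1, chr19:40994222-40994471 on the minus strand for Blnk and chr5:88527898-88528147 on the minus strand for Jchain.
Cd79a: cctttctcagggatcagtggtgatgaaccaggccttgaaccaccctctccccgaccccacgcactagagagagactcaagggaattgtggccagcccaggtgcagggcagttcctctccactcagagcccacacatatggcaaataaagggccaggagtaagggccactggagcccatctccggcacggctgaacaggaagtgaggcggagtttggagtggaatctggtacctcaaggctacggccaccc
Pou2af1: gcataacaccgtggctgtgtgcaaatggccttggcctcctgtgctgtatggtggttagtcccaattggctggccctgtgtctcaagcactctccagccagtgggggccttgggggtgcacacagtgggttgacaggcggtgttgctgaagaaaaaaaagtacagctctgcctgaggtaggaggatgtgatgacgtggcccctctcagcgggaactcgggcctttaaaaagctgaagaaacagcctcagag
Blnk: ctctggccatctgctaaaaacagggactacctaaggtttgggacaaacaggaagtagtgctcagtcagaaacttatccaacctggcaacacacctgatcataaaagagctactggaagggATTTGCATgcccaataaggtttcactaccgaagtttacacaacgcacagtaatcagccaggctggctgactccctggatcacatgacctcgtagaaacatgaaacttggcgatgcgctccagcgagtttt
Jchain: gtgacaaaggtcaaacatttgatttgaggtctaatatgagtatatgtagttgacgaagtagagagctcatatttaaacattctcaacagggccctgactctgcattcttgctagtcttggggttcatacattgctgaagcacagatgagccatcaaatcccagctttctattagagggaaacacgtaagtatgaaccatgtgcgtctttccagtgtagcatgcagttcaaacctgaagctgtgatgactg

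On either strand of these windows, the octamer ATGCAAAT was present in 2 of 26 members (7.69%, Blnk and Vpreb3) and in 1.52% of 13953 genes with a window. The pair of half-sites of the EBF family, CCCNNGGG, was present in 3 of 26 members (11.5%, Bank1, Cd22 and Spib) and in 17.7% of the genes. GAGGAAG, a core that PU.1 and Spib can bind, was present in 5 of 26 members (19.2%, Btla, Cd37, Cd72, Fcrl1 and Siglecg) and in 12.7% of the genes. The motifs do not contain one another. Such a match is only a string of letters in a short window.

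The first question was how these genes differed between lungs given amiodarone and vehicle. The mature B cell genes were lower as a group in the amiodarone library. A gene was called lower or higher when its FPKM differed by at least 1.5-fold and the interval of the ratio excluded 1. By this rule 21 of 30 mature B cell genes (70.0%) were called lower with amiodarone than with vehicle, against a background of 6.86% of all detected genes. None of the 30 was called higher, where the background was 5.27%. The median ratio of the 30 genes was 0.442 (log2 ratio -1.18), beside 0.965 for all detected genes. By more than counting error, 28 of the 30 were lower, as were 4037 of 13402 detected genes. In RNA from whole lung, fewer B cells, less of these RNAs per B cell and other changes in tissue make-up cannot be told apart.

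**Figure D1:**
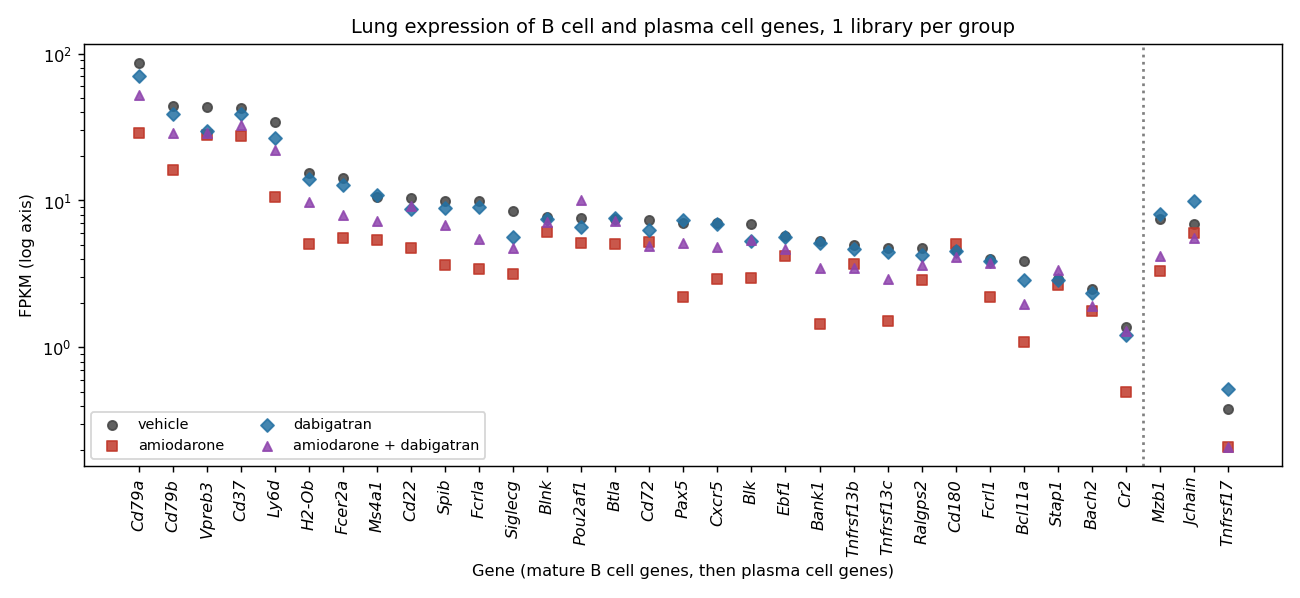
FPKM (log axis) of the 33 genes in the 4 libraries, with 1 point per gene and library and no error bars. The amiodarone point is the lowest of the 4 for 27 of the 30 mature B cell genes, and the vehicle point is the highest for 24. The corresponding shares of all detected genes were not computed.

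Both signalling chains of the B cell receptor changed alike. Cd79a, which carries the activation motif of the receptor together with Cd79b, had 86.1 FPKM in the vehicle library, 28.9 in amiodarone, 70.7 in dabigatran and 51.9 in the combination. Cd79b had 44.3, 16.1, 38.5 and 29.0 FPKM in the same order of libraries. For both chains vehicle was highest and amiodarone lowest, with dabigatran nearer to vehicle than the combination was. The ratio of amiodarone to vehicle was 0.336 (0.307 to 0.367) for Cd79a and 0.364 (0.321 to 0.412) for Cd79b.

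Among the 12 genes grouped here as surface receptors, coreceptors and related proteins, 9 were called lower with amiodarone, with a median ratio of 0.486. Ms4a1, which encodes CD20, had 10.5, 5.41, 10.9 and 7.20 FPKM, again in the order vehicle, amiodarone, dabigatran and combination. Cd22, an inhibitory lectin of the B cell surface, had 10.4, 4.76, 8.73 and 9.12 FPKM. The amiodarone level was thus lowest for both, while the combination was close to dabigatran for Cd22 but not for Ms4a1. The ratio of amiodarone to vehicle was 0.514 (0.431 to 0.612) for Ms4a1 and 0.459 (0.40 to 0.525) for Cd22.

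Fcer2a, the low-affinity receptor for IgE (CD23), had 14.1 FPKM in the vehicle library, 5.56 in amiodarone, 12.8 in dabigatran and 8.0 in the combination. Cr2, a complement receptor that lowers the threshold for B cell activation, had 1.38, 0.50, 1.22 and 1.29 FPKM. These receptors were both lowest with amiodarone, but with both drugs Cr2 was near vehicle and Fcer2a was not. The ratio of amiodarone to vehicle was 0.393 (0.335 to 0.460) for Fcer2a and 0.362 (0.261 to 0.497) for Cr2, the member with the lowest level of the 30 in the vehicle library. The gene spans of Fcer2a and Trappc5 overlap, and counting by strand is not given in the sources used here, so that reads of the pair may not have been separated. The same holds for Cd72 with Tesk1, Ralgps2 with Angptl1 and 4930439D14Rik, Cxcr5 with Bcl9l, and Tnfrsf13b with Usp22.

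Ly6d, a surface protein of early and mature B cells, had 34.2, 10.6, 26.6 and 22.1 FPKM, with a ratio of amiodarone to vehicle of 0.311 (0.252 to 0.381). Fcrla, Siglecg, Fcrl1 and Cd37 were also called lower, at ratios of 0.346, 0.376, 0.553 and 0.647. Btla, an inhibitory receptor that T cells carry as well, and Cd72 were lower by more than counting error but missed the fold threshold, at 0.678 and 0.711. Cd180, a relative of the Toll-like receptors found on B cells and myeloid cells, was the only one of the 30 with a higher value in the amiodarone library. Its levels were 4.63, 5.08, 4.56 and 4.12 FPKM, and the ratio of amiodarone to vehicle was 1.10 (0.890 to 1.35), within counting error.

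The adaptors and kinases of receptor signalling spread widely. Bank1, a scaffold of B cell receptor signalling, had 5.26 FPKM in the vehicle library, 1.45 in amiodarone, 5.17 in dabigatran and 3.47 in the combination. Its ratio of amiodarone to vehicle, 0.276 (0.211 to 0.356), was the lowest of the 30. Blk, a Src-family kinase, was at 0.427 and Ralgps2 at 0.606, both called lower. Blnk, the adaptor that links the kinase Syk to downstream signalling, had 7.69, 6.06, 7.42 and 7.09 FPKM and a ratio of 0.788 (0.659 to 0.942), lower by more than counting error but not by the fold. Stap1 had 2.91, 2.67, 2.86 and 3.36 FPKM, and its ratio of 0.918 (0.685 to 1.23) was within counting error. Blnk, Stap1 and Cd180 are all known from cells outside the B lineage too.

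Of 6 transcription factors and coactivators, 3 were called lower with amiodarone and all 6 were lower by more than counting error. Pax5, the factor that maintains B cell identity, had 7.06 FPKM in the vehicle library, 2.2 in amiodarone, 7.39 in dabigatran and 5.16 in the combination. Spib, an Ets factor shared with plasmacytoid dendritic cells, had 9.95, 3.63, 8.84 and 6.85 FPKM. Bcl11a, a zinc finger factor of B cells and dendritic cells, had 3.85, 1.08, 2.88 and 1.98 FPKM. All 3 were lowest with amiodarone, at ratios to vehicle of 0.312 (0.259 to 0.374) for Pax5, 0.365 (0.307 to 0.432) for Spib and 0.281 (0.208 to 0.373) for Bcl11a. From reads scaled to library totals, without transcript length, the Bcl11a ratio was 0.333.

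Ebf1, which acts with Pax5 and is also expressed in stromal cells and pericytes, had 5.71, 4.16, 5.61 and 4.64 FPKM. Its ratio of amiodarone to vehicle was 0.729 (0.636 to 0.835). Bach2, which restrains plasma cell differentiation and acts in T cells too, was at 0.708. Pou2af1, the coactivator of octamer-binding factors, had 7.59 FPKM in the vehicle library, 5.12 in amiodarone, 6.57 in dabigatran and 10.1 in the combination. Alone among the factors, Pou2af1 was highest with both drugs. Its ratio of amiodarone to vehicle was 0.675 (0.569 to 0.798), so that Ebf1, Bach2 and Pou2af1 all stayed short of the fold threshold.

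For homing and survival, Cxcr5, the receptor for the follicle chemokine Cxcl13, had 7.04, 2.94, 6.95 and 4.80 FPKM. Tnfrsf13c, the BAFF receptor on which mature B cells depend for survival, had 4.74, 1.52, 4.49 and 2.93 FPKM. The ratio of amiodarone to vehicle was 0.418 (0.340 to 0.511) for Cxcr5 and 0.321 (0.230 to 0.441) for Tnfrsf13c, with the vehicle and dabigatran levels close together for both. Tnfrsf13b (TACI), which binds both BAFF and APRIL, had 4.94, 3.67, 4.69 and 3.45 FPKM, and its ratio of 0.743 (0.604 to 0.912) was lower by more than counting error but not by the fold. H2-Ob, a modulator of antigen loading on class II molecules, was called lower at 0.326, as was Vpreb3, a protein of receptor assembly, at 0.653.

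**Figure D2:**
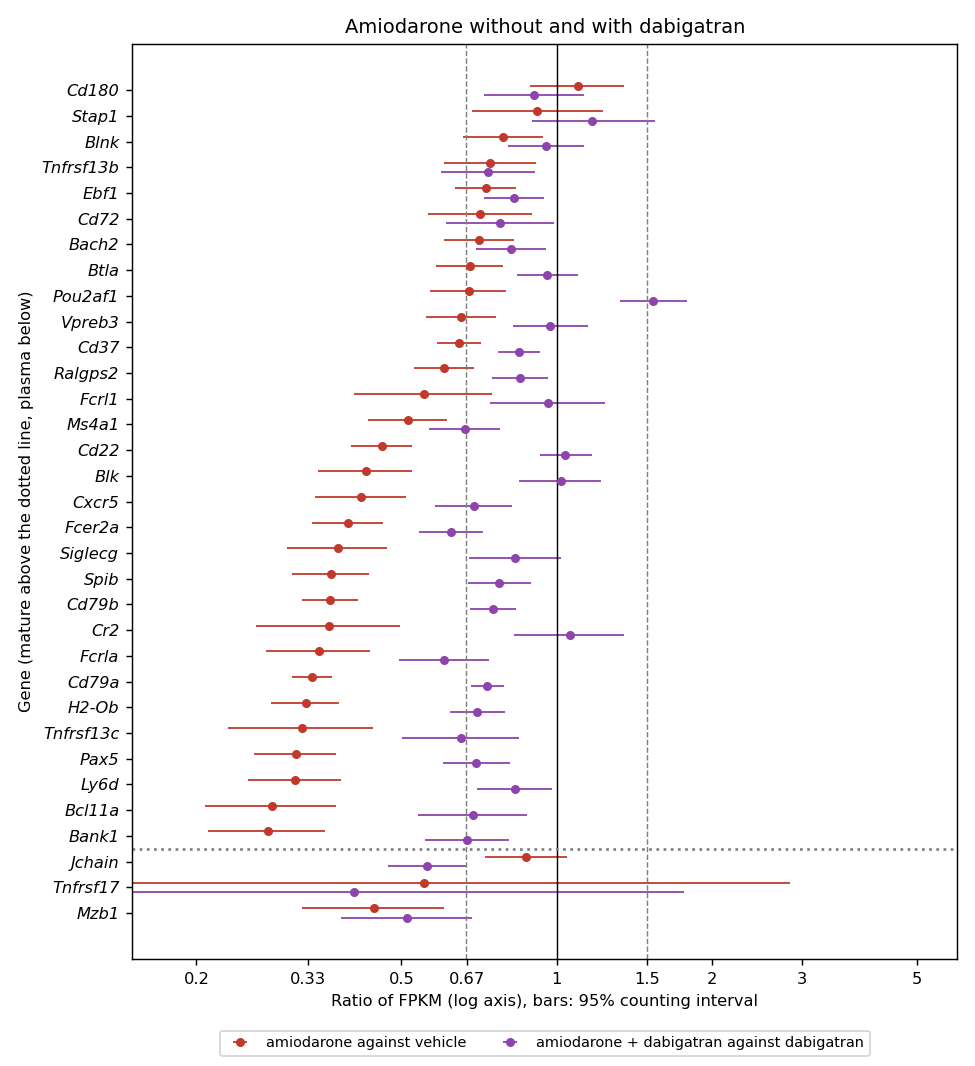
Ratio of FPKM (log axis) of amiodarone to vehicle and of amiodarone + dabigatran to dabigatran for each of the 33 genes, with 95% intervals from the reads. Of the 30 mature B cell genes 28 have a lower ratio in the first comparison than in the second, a count whose share over all detected genes was not computed. The intervals of Tnfrsf17, which had 3 to 7 reads, run past the left end of the axis.

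The fall was not of one size across the mature B cell genes. The interval of the ratio held the median of the 30 genes for 8 members, lay above it for 12 and below it for 10. Among the 19 members known to be more restricted to B cells, 17 were called lower and the median ratio was 0.376. Of the 11 members also known from other cells, 4 were called lower, at a median ratio of 0.708. The reads of all 30 genes together made up 744 of 1000000 reads with vehicle and 357 of 1000000 with amiodarone, a ratio of 0.480 (0.466 to 0.494). At a stricter threshold of 2-fold, 16 of the 30 were lower, where 1.87% of all detected genes were, and at 3-fold 6 of the 30 were, where 0.433% were. The 21 genes made up 2.29% of the 919 genes called lower in this comparison.

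Dabigatran alone was compared with vehicle next. None of the 30 mature B cell genes was called lower, where the background was 1.21%, and none was called higher, where it was 1.17%. The median ratio was 0.906, beside 1.0 for all detected genes. A lower value was seen for 27 of the 30, and for 6614 of 13373 detected genes. By more than counting error, 9 of the 30 were lower, as were 1794 of the 13373 genes, and the other 21 of the 30 were within it. Siglecg, an inhibitory receptor of B cells, had the lowest ratio, 0.670 (0.557 to 0.805), and Vpreb3 followed at 0.690 (0.590 to 0.807). From reads scaled to library totals the order of these genes turned, with Siglecg at 0.746 and Vpreb3 at 0.686. Cd79a was at 0.821 (0.768 to 0.878). The 3 members with a higher value were Pax5, Ms4a1 and Btla, all within counting error. Pax5 was at 1.05 in FPKM and at 0.853 from reads scaled to library totals, so that its direction depended on the transcript length used. The summed reads of the 30 genes gave a ratio of 0.884 (0.862 to 0.907).

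With both drugs the mature B cell genes were higher than with amiodarone alone. Of 30 members 16 (53.3%) were called higher in amiodarone + dabigatran than in amiodarone, against a background of 2.20%, and none was called lower, against 1.85%. The median ratio was 1.61, beside 1.02 for all detected genes. This comparison shares the amiodarone library with that of amiodarone and vehicle, so that a low value in that 1 library enters both.

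Cr2 had the highest ratio of the combination to amiodarone, 2.58 (1.88 to 3.58), followed by Bank1 at 2.39 (1.83 to 3.15), Pax5 at 2.35 (1.93 to 2.86) and Ly6d at 2.08 (1.68 to 2.59). From reads scaled to library totals Pax5 was at 1.93. The receptor chains Cd79a and Cd79b were at 1.79 (1.63 to 1.97) and 1.80 (1.58 to 2.05). Cd22 and Pou2af1 rose to a similar degree, at 1.92 and 1.98, as did Tnfrsf13c at 1.93 and H2-Ob at 1.94. Blk, Bcl11a, Spib, Fcrl1, Cxcr5 and Fcrla, at 1.83, 1.83, 1.89, 1.70, 1.63 and 1.58, complete the 16. Siglecg, Fcer2a, Btla, Ms4a1, Ralgps2 and Cd37 were higher by more than counting error without reaching the fold, between 1.19 and 1.48. The other 8 members were within counting error, and 3 of them had a lower value: Cd180 at 0.811, Tnfrsf13b at 0.940 and Cd72 at 0.941. By restriction, 14 of the 19 more B cell-restricted members were called higher and 2 of the 11 others were.

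**Figure D3:**
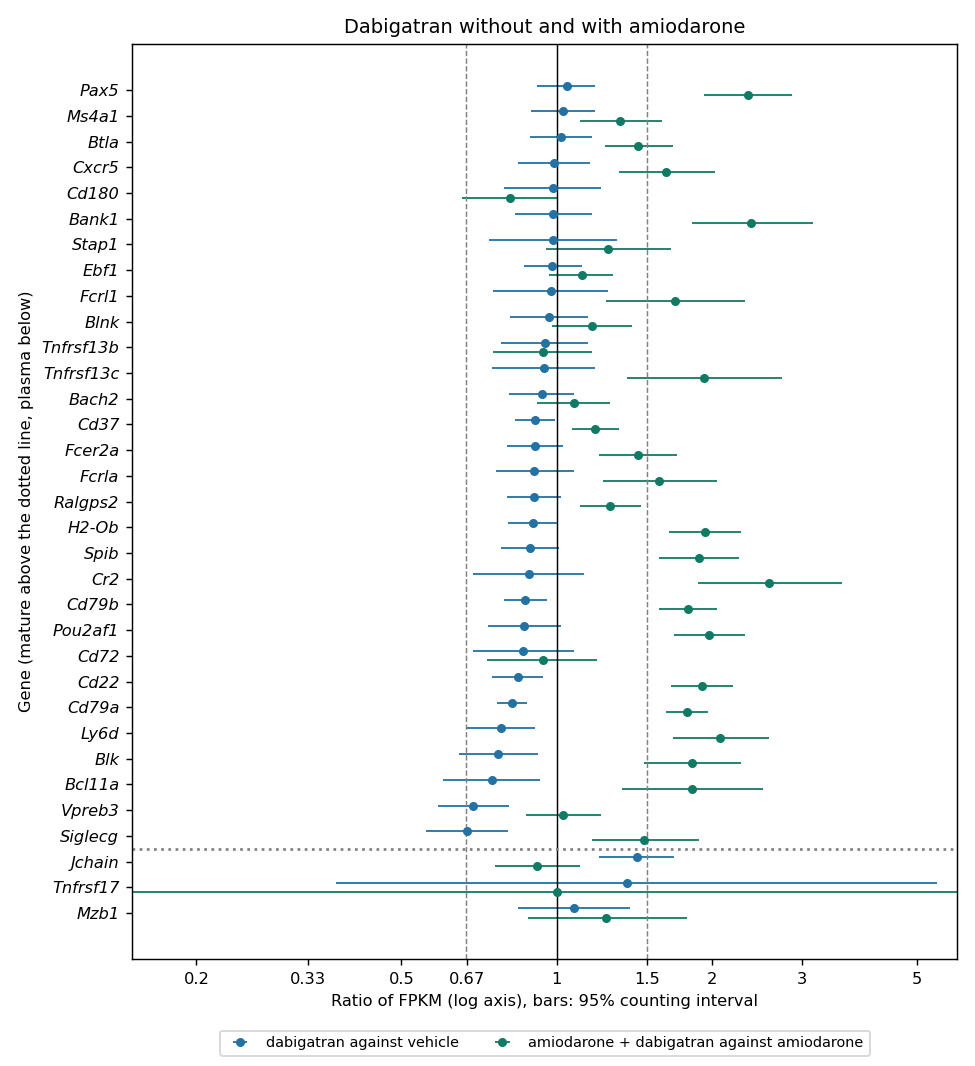
Ratio of FPKM (log axis) of dabigatran to vehicle and of amiodarone + dabigatran to amiodarone for each of the 33 genes, with 95% intervals from the reads. The mature B cell genes lie between 0.670 and 1.05 in the first comparison and between 0.811 and 2.58 in the second, and the interval of Tnfrsf17 in the second runs past both ends of the axis.

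The level with both drugs was nevertheless below that of vehicle for most members. The value of the combination lay between those of amiodarone and vehicle for 25 of 30 genes, at or above vehicle for 2 (Pou2af1 and Stap1) and at or below amiodarone for 3 (Cd72, Cd180 and Tnfrsf13b). How all detected genes divide in this way was not computed. Against vehicle, 10 of 30 were called lower with both drugs, where the background was 4.35%, and none was called higher, where it was 4.34%. The median ratio was 0.693. Bcl11a was lowest at 0.514, and Cd79a was at 0.603 (0.561 to 0.648). Cr2, Btla and Fcrl1, at 0.935, 0.979 and 0.937, were within counting error of vehicle. The summed reads of the 30 genes were 535 of 1000000 reads, beside 658 of 1000000 with dabigatran, and their ratio to vehicle was 0.720 (0.702 to 0.739).

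**Figure D4:**
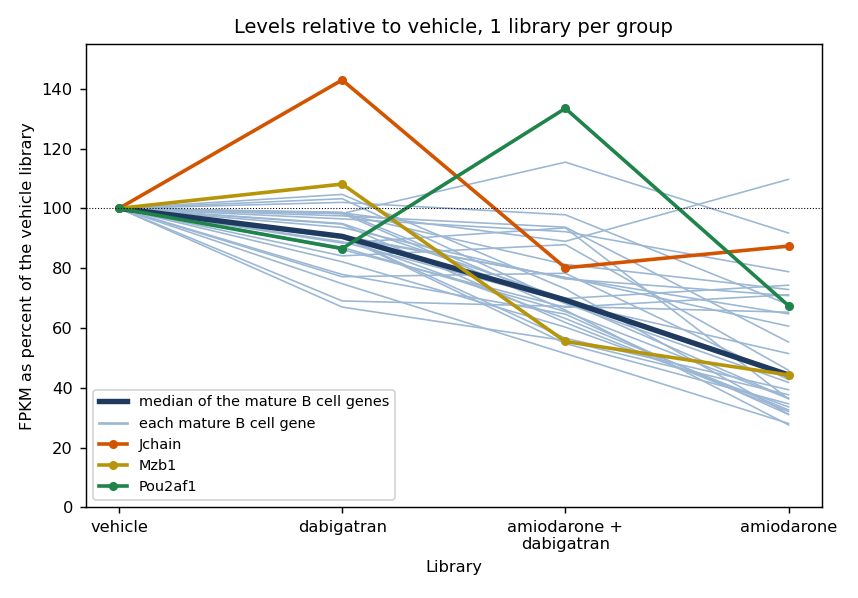
FPKM as a percent of the vehicle library (y axis) in each of the 4 libraries (x axis), with a thin line for each mature B cell gene, a thick line for their median and coloured lines for Jchain, Mzb1 and Pou2af1; the lines join libraries and show no time course or error. The median is lowest with amiodarone and intermediate with both drugs, Jchain is highest with dabigatran and Pou2af1 with both drugs.

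Amiodarone was also given on top of dabigatran, in a comparison that shares no library with that of amiodarone and vehicle. Here 4 of 30 mature B cell genes (13.3%) were called lower in amiodarone + dabigatran than in dabigatran, against a background of 4.07%. They were Fcrla at 0.605 (0.494 to 0.738), Fcer2a at 0.624 (0.541 to 0.719), Tnfrsf13c at 0.653 (0.502 to 0.845) and Ms4a1 at 0.663 (0.566 to 0.776). Pou2af1 was the 1 member called higher, at 1.54 (1.33 to 1.79), against a background of 4.23%. The median ratio was 0.822, beside 0.991 for all detected genes. By more than counting error, 19 of the 30 were lower, as were 3141 of 13379 detected genes. Cd79a and Cd79b were among these 19, at 0.734 (0.681 to 0.791) and 0.753 (0.678 to 0.836), and so were Pax5 at 0.698, Cxcr5 at 0.691 and Bank1 at 0.671. Cd22, Blk and Cr2 were at 1.04, 1.02 and 1.06, within counting error.

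Across the 2 comparisons of amiodarone with its own control, without and with dabigatran, 24 of the 30 genes had a lower value in both and 19 were lower in both by more than counting error. For 28 of 30 the ratio was lower without dabigatran than with it, a difference between the comparisons that was not tested. The shares of all detected genes that correspond to these counts were not computed. Over the 30 genes the log2 ratios of these comparisons had a Pearson r of 0.52 and a Spearman rho of 0.53. Those are descriptions across genes of the same libraries, and genes are not independent replicates.

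Of the 3 plasma cell genes 2 were detected, and these differed from each other. Jchain had 6.89 FPKM in the vehicle library (247 reads), 6.02 in amiodarone (231 reads), 9.85 in dabigatran (358 reads) and 5.52 in the combination (214 reads). Dabigatran was highest and the combination lowest. The ratio of amiodarone to vehicle was 0.874 (0.727 to 1.05), within counting error. Jchain was higher with dabigatran than with vehicle by 1.43 (1.21 to 1.69), which is beyond counting error and short of the fold. With both drugs it was called lower than with dabigatran, at 0.560 (0.471 to 0.666), and was at 0.917 (0.758 to 1.11) of amiodarone. Against vehicle the combination was at 0.801 (0.664 to 0.966), lower by more than counting error but not by the fold.

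Mzb1, a chaperone of antibody assembly that marginal zone B cells and plasmacytoid dendritic cells express too, had 7.5, 3.32, 8.11 and 4.16 FPKM, from 123, 62, 138 and 74 reads. The libraries without amiodarone were both above those with it. Mzb1 was called lower with amiodarone than with vehicle, at 0.443 (0.321 to 0.605), and lower with both drugs than with dabigatran, at 0.513 (0.381 to 0.685). Against vehicle the combination was called lower as well, at 0.555 (0.410 to 0.746), and against amiodarone it was at 1.25 (0.882 to 1.79), within counting error. Tnfrsf17, the receptor BCMA of plasma cells, had only 5, 3, 7 and 3 reads (0.38, 0.21, 0.52 and 0.21 FPKM). It was not detected at 1 FPKM in any library, and no difference could be seen at this depth.

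The reads of the plasma cell genes together were 2.88% (exact 95% interval 2.59 to 3.19) of those of the mature B cell genes with vehicle. With amiodarone they were 4.43% (3.93 to 4.98), with dabigatran 4.31% (3.93 to 4.71) and with both drugs 2.87% (2.55 to 3.23). The share was thus higher in each library with a single drug than with vehicle or with both. Without Jchain the shares were 0.984%, 0.973%, 1.24% and 0.761% in the same order, so that the amiodarone share was no longer above that of vehicle. The dabigatran share had the highest value there. Without Mzb1 the shares were 1.94%, 3.50%, 3.13% and 2.14%, with amiodarone highest. No intervals were computed for the shares that leave out a gene. In reads per 1000000, the plasma cell genes were at 21.4 (vehicle), 15.8 (amiodarone), 28.3 (dabigatran) and 15.4 (both drugs). In the amiodarone library the ratio to vehicle was 0.738 (0.631 to 0.861) for the plasma cell reads, beside 0.480 for the mature B cell reads. Jchain supplied 231 of the 296 plasma cell reads with amiodarone and 247 of 375 with vehicle, so that the pooled ratio mostly follows 1 gene. From reads scaled to library totals Mzb1 was at 0.471, close to the mature B cell ratio. Of 12 immunoglobulin constant genes looked for by symbol, none was found in the expression table, so that none is analysed here.

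Other genes of the B cell receptor pathway did not move as one. Of 19 such genes that are no members, 3 were called lower and 2 higher with amiodarone than with vehicle, at a median ratio of 1.03. Fcmr, the receptor for IgM, had 30.6, 17.6, 27.4 and 28.2 FPKM, with a ratio of 0.577 (0.513 to 0.648). Prkcb, a kinase of B cell receptor signalling, had 4.48, 2.35, 4.03 and 3.84 FPKM, and its ratio of 0.525 (0.458 to 0.601) was the lowest of the 19. Both were called lower. Cd81, a membrane protein expressed in most cells, was at 0.884, and Inpp5d, a phosphatase that myeloid cells use as well, was called higher at 1.71. In the combination against amiodarone, 3 of the 19 were called higher and none lower. None was called either way with dabigatran alone. Against dabigatran, the combination had 1 called higher and none lower, and against vehicle it had none called either way.

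Of 9 detected genes of germinal centres and plasma cell differentiation, 2 were called lower with amiodarone and 1 higher. The higher gene was Fkbp11, a secretory-pathway isomerase, at 2.07 (1.52 to 2.86), and the lowest was Irf4, a factor of plasma cell differentiation, at 0.50 (0.378 to 0.658). Bcl6, the factor of germinal centre B cells, was at 1.16, and S1pr2 was at 0.899. Of 6 detected ligands for B cell survival and homing, none was called with amiodarone. Tnfsf13b, which encodes BAFF, had 15.4, 13.7, 17.5 and 15.7 FPKM, and Tnfsf13, which encodes APRIL, had 11.3, 14.5, 11.5 and 14.4 FPKM. Cxcl13, the ligand of Cxcr5, had 1.91, 2.56, 4.49 and 6.35 FPKM, so that its values were higher in both libraries with dabigatran. It was called higher with dabigatran than with vehicle, at 2.35 (1.58 to 3.55), and higher with both drugs than with amiodarone, at 2.48 (1.79 to 3.48).

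Markers of other cell types moved in these libraries as well, and their part in the results above was not tested. Of 11 detected T cell genes, 2 were called lower with amiodarone (Cd8a at 0.631, with Cd8b1) and none higher, at a median ratio of 0.918. Cd4 had the largest rise, at 1.45 (1.19 to 1.77), beyond counting error but short of the fold. With both drugs Cd4 was called lower than with amiodarone, at 0.642 (0.526 to 0.782). The summed level of the T cell list was 72.5, 66.5, 72.3 and 70.2 FPKM. All 7 neutrophil genes were called higher with amiodarone, and 6 of 9 macrophage genes were, at median ratios of 6.31 and 1.88. The summed level of the macrophage genes ran from 3578 (vehicle) to 5809 FPKM (amiodarone) and that of the neutrophil genes from 67.5 to 599 FPKM. Lyz2 alone had 3396 FPKM with vehicle and 4907 with amiodarone, so that the macrophage sum mostly follows 1 gene. With both drugs against dabigatran, 6 of 6 detected neutrophil genes and 7 of 9 macrophage genes were called higher. With both drugs against amiodarone, 2 of 7 neutrophil genes were called lower, and 2 of 9 macrophage genes were called higher.

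Red blood cell genes, a rough and untested measure of blood in the tissue, summed to 15786, 21409, 17538 and 8525 FPKM in the vehicle, amiodarone, dabigatran and combination libraries. Their median ratio was 1.42 in amiodarone against vehicle and 0.415 in the combination against amiodarone, which is the opposite direction to the mature B cell genes in both comparisons. In the combination against dabigatran it was 0.502, the same direction as theirs. Natural killer cell genes were called higher with dabigatran for 5 of 8, at a median ratio of 1.63, and 1 of 8 was called lower with amiodarone. In the combination against amiodarone 4 of 8 were called higher, at a median ratio of 1.49, the same direction as the mature B cell genes. Of 5 detected dendritic cell genes 1 was called lower with amiodarone, at a median ratio of 0.918. It was Cd209a, at 0.253 (0.156 to 0.397), a lower ratio than any of the 30 mature B cell genes had. In the combination against amiodarone Cd209a was called higher, at 2.15 (1.32 to 3.61), and 1 other gene of the list was called lower.

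Of 3 detected genes of plasmacytoid dendritic cells, which share Spib and Mzb1 with the B lineage, 2 were called lower with amiodarone. Their median ratio was 0.363, beside 0.442 for the mature B cell genes, so that the fall with amiodarone was not particular to B cell genes. Siglech had 1.19, 0.43, 0.90 and 1.01 FPKM, at a ratio of 0.361 (0.197 to 0.637). Only 1 of 6 thymus genes was detected, and it was not called in any comparison. Of 3 detected genes on a list drawn up for lymph node stroma, 1 was called higher and 1 lower with amiodarone than with vehicle. In the combination against amiodarone 2 were called higher, at a median ratio of 2.25, which is the ratio of Chst4. Chst4, a sulfotransferase of high endothelial venules, had 5.93, 3.01, 5.69 and 6.76 FPKM. It was thus lowest with amiodarone, as most mature B cell genes were. Fcna went the other way, with 0.27 FPKM in vehicle and 1.05 in amiodarone, a ratio of 3.89 (1.56 to 11.6). Enpp2, which was not called, was at 0.933 in the same comparison. Madcam1, an addressin of mucosal lymphoid vessels on the same list, was at most at 0.050 FPKM in any library.

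**Figure D5:**
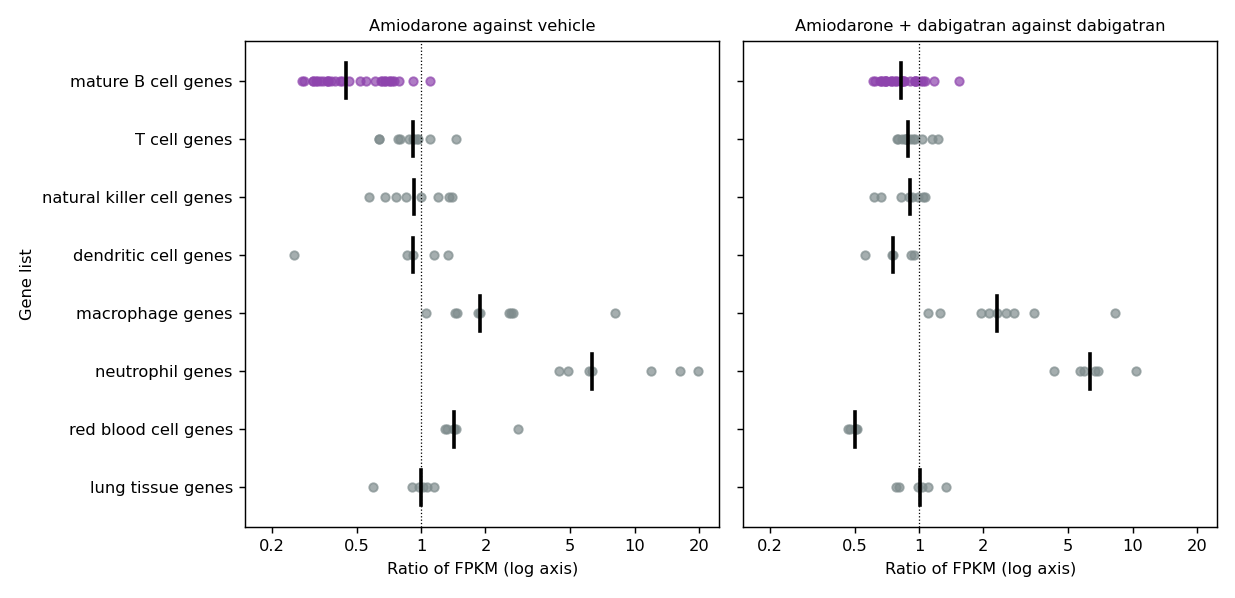
Ratio of FPKM (log axis) for the mature B cell genes and for markers of lung tissue and 6 other cell types, in amiodarone against vehicle (left) and amiodarone + dabigatran against dabigatran (right), with 1 point per detected gene and a bar at the median of each list. On the left the mature B cell genes have a median of 0.442, the T cell genes of 0.918 and the neutrophil genes of 6.31, and on the right 0.822, 0.890 and 6.28. Plasmacytoid dendritic cell genes, with a median of 0.363 in amiodarone against vehicle, are not drawn.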

How the data were processed

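Poly(A) RNA of lung tissue was sequenced on DNBseq in 1 library per treatment group. Per the study's methods and the submitters' processing notes, the authors mapped the reads with HISAT and Bowtie2 to GRCm38.p6 and its genes, and estimated expression with RSEM. For each library the authors deposited estimated counts of reads per gene and a normalized value on a linear scale. These deposited values are taken as FPKM, a unit inferred from the table, because the sources used here do not name it. Another 8 columns with the authors' means were not used.

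Libraries were grouped by their labels. For each gene the ratio of FPKM was computed in 4 comparisons, and the combination was also described against vehicle. The exact Clopper-Pearson 95% interval was taken from the estimated reads, rounded to whole numbers, and rescaled to FPKM. A count of 0 was allowed up to 3 reads. Sequenced fragments are not independent molecules. Detected genes had at least 1 FPKM in 1 of the 2 libraries, and a call required a 1.5-fold difference and an interval excluding 1. The procedure was tested on simulated data. Python 3.11.15, SciPy 1.17.1 and pandas 2.3.3 were used.

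The members and the lists were chosen with earlier results of these data known. The values given in full are those of the receptor and its coreceptors, the main transcription factors, the homing and survival receptors, the plasma cell genes and, of the other members, the 3 with the lowest and the 3 with the highest ratio of amiodarone to vehicle. Other members have ratios only. Of the lists of other genes at most 4 a list have values, namely the first pair detected and the largest rise and fall with amiodarone. Lyz2 is given besides, because it makes up most of the macrophage sum. Bcl6 and S1pr2, Cd81 and Fcmr, and Tnfsf13b and Tnfsf13 are such pairs, while Cxcl13 is the largest rise of its list. Alternatives were other minimum levels, pseudocounts, scalings, thresholds and a narrower set of members. A gene of these lists is not reported here.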

Additional observations from a re-analysis of the deposited data

Results flagged for a closer look

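Pou2af1 differed in direction between the 2 comparisons of amiodarone with its control. The ratio was 0.675 in amiodarone against vehicle and 1.54 in amiodarone + dabigatran against dabigatran, each beyond counting error. Some other members had opposite directions, each beyond counting error, for dabigatran without and with amiodarone. The ratio of dabigatran to vehicle and that of the combination to amiodarone were 0.821 and 1.79 for Cd79a, 0.870 and 1.80 for Cd79b, 0.841 and 1.92 for Cd22, and 0.909 and 1.19 for Cd37. They were 0.779 and 2.08 for Ly6d, 0.670 and 1.48 for Siglecg, 0.771 and 1.83 for Blk, and 0.748 and 1.83 for Bcl11a. With 1 library per group, the difference between the comparisons was not tested for any of these genes.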

How the results depend on the processing

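Of 128 alternative values, 115 stayed within the limits set for a change and 13 moved. Counts that stayed at 0 are among the 115. Only the median log2 ratios were checked for a reversal of direction, and none of them reversed. With log2(FPKM + 1), the median log2 ratio of the mature B cell genes in amiodarone against vehicle was -0.91 in place of -1.18. Among genes with at least 5 FPKM, 10 members in place of 16 were called higher in the combination against amiodarone, and at 2-fold 4 were. In the combination against dabigatran, 2 in place of 4 were called lower with log2(FPKM + 1) and 0 at 2-fold. There 19 were lower with any difference beyond counting error, beside 3141 of 13379 detected genes. In the same comparison 0 in place of 1 was called higher with log2(FPKM + 1) and 0 at 2-fold. With any difference beyond counting error, 9 members in place of 0 were called lower with dabigatran against vehicle, beside 1794 of 13373 detected genes. Against the reads of the more B cell-restricted members alone, the plasma cell genes were at 4.29% (vehicle), 7.89% (amiodarone), 6.56% (dabigatran) and 4.50% (both drugs). Stricter thresholds and fewer genes lower a count by construction. Pseudocounts shrink ratios of low genes. Scaling between libraries cancels in the plasma cell share and was not run for it. No paired analysis was possible because each group has 1 library, and for the same reason no library could be left out. Depth limits Tnfrsf17, and variation between animals is not measured.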
